A study of Mus musculus with 7 samples.

Results

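The genes described here encode parts of the voltage-gated calcium channel and of calcium/calmodulin-dependent protein kinase II (CaMKII). They are 10 of the 23725 genes counted in sorted osteoblasts: the pore gene Cacna1c, the alpha2delta gene Cacna2d1, the beta subunit genes Cacnb1 to Cacnb4, and the kinase genes Camk2a, Camk2b, Camk2d and Camk2g. Cacnb4 and Camk2a were put forward because earlier results of the same comparison placed them among the genes of smallest p that were higher with a tumor, and the other members because they are paralogues or partners of these. The values of Cacnb4 and Camk2a between the groups are therefore a description and support no claim about tumors.

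Both groups were male KP-Ocn-GFP mice on the C57BL/6 background, so that tumor-free mice carried the same Cre-dependent alleles, floxed p53 among them, and the same green fluorescent protein (GFP) reporter driven by the osteocalcin promoter (Ocn-GFP). In 4 tumor-bearing mice, lung tumors had been started with a Cre-expressing adenovirus (AdCre) given through the trachea 14 weeks before death; 3 mice were tumor-free, and whether they received any virus is not stated in the labels. The mice were 31 weeks old, except for 1 of each group (tumor-bearing replicate 4, tumor-free replicate 3) aged 23 weeks. From each mouse 2000 GFP-positive cells lacking CD45, CD31 and the erythroid antigen were sorted from pooled bone digest and lineage-depleted marrow, and the 3′ ends of their transcripts were sequenced as 1 library. The comparison asked whether osteoblasts differ in gene expression when the lung carries a tumor.

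A voltage-gated calcium channel opens on depolarisation of the membrane and lets calcium into the cell. Its alpha1 subunit forms the pore, the alpha2delta subunit promotes its delivery to the surface, and the intracellular beta subunit binds the alpha1 subunit and sets its surface level and gating. CaMKII is a multisubunit kinase that calcium-loaded calmodulin switches on and that can keep itself active by autophosphorylation. In osteoblasts the L-type channel built on Cacna1c is the best known of these channels, and CaMKII has been linked to osteoblast differentiation. Cacnb4 and Camk2a are best known from neurons.

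Library totals ran from 77127 to 169774 counts, and a gene with a count of 0 could have had up to 3 counts, which is 17.7 to 38.9 CPM (counts scaled to a library size of 1000000). Of all genes, 43.8% had 0 counts in every library. Osteoblast markers were present but low, with 23 to 96 counts of Col1a1 and 7 to 35 of Runx2, and osteocalcin itself (Bglap), whose promoter drives the reporter, had 0 to 2. Among the 2495 genes with enough counts to be tested, the quasi-likelihood test of edgeR, fitted with age as a covariate, called 0 genes (0% of those tested) different between the groups. The lowest adjusted p was 0.998. Before adjustment 23 genes were higher and 35 lower with a tumor at p under 0.05, and DESeq2 (13 and 36) and limma voom (27 and 38) also called 0 genes after adjustment.

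The longest exact runs that paralogues share were read from their sequences. In the longest coding transcript of each gene (GENCODE vM21), the longest stretch identical between Cacnb4 and a paralogue was 20 bases for Cacnb1, 17 for Cacnb2 and 23 for Cacnb3, each inside the coding part. For Camk2a it was 32 bases with Camk2b, 23 with Camk2d and 29 with Camk2g. No label states the read length. The stretches of the beta subunit genes are shown because Cacnb4 is set against these paralogues below; capitals mark the identical run, with 15 further coding bases on either side.
Cacnb4 beside Cacnb1: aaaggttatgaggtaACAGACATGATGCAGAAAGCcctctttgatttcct
Cacnb1: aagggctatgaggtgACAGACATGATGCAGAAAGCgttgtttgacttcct
Cacnb4 beside Cacnb2: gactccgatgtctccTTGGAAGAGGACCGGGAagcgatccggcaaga
Cacnb2: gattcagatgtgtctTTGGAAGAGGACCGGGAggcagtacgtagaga
Cacnb4 beside Cacnb3: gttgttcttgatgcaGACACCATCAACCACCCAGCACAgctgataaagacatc
Cacnb3: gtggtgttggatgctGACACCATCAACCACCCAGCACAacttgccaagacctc
Each run is the longest its pair shares, so a read reaching past either end of it meets a base that differs. Neither the mismatches allowed in mapping nor other transcripts were examined, so the runs do not show how far reads were shared.

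Of the 10 members, 8 had at least 1 count, and 3 had enough counts for the test. These were Cacnb2 and Cacnb4 among the beta subunits, and Camk2a among the kinases. The filter asked for at least 84.3 CPM, 10 counts at the median library size, in at least 3 libraries. Cacnb4 and Camk2a each reached this in 4 of 4 tumor-bearing and 1 of 3 tumor-free libraries. They were thus tested through the group in which they were higher. Cacnb2 reached it in 3 tumor-bearing and 2 tumor-free libraries, and Camk2d, the nearest member below, in 1 tumor-bearing library with 31 counts in all.

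**Figure D1:**
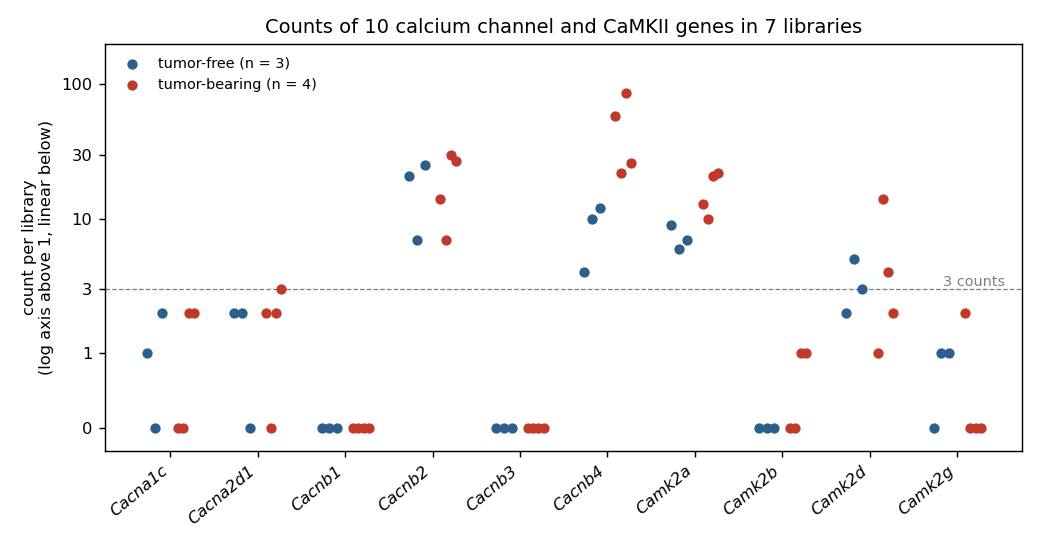
Counts of the 10 members in each library, 1 point per mouse, on an axis that is logarithmic above 1 and linear below. Cacnb2, Cacnb4 and Camk2a lie above the dashed line of 3 counts in every library, and Cacnb1 and Cacnb3 at 0 in all 7.

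The pore and the alpha2delta subunit were barely counted. Cacna1c (chromosome 6, 118587240 to 119197384, mm10), the pore of the L-type channel, had 0 to 2 counts per library and 7 in all. Cacna2d1 (chromosome 5, 15934264 to 16374511), which encodes an alpha2delta subunit, had 0 to 3 counts and 11 in all. Neither could be compared between the groups at this depth. The pore genes with most counts were Cacna1f (66 counts in all), known from the retina, and Cacna1e (51), the pore of the R-type channel. Of the 10 pore genes, Cacna1b and Cacna1i had 0 counts.

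The 4 beta subunit genes fell into 2 that were counted and 2 that were not. Cacnb1 (chromosome 11, 98001508 to 98023034), the beta subunit of skeletal muscle, and Cacnb3 (chromosome 15, 98628436 to 98644536) had 0 counts in all 7 libraries, which allows up to 3.61 CPM over the libraries together. Cacnb2 (chromosome 2, 14603861 to 14988811), the main beta subunit of the heart, was counted in every library, and so was Cacnb4 (chromosome 2, 52428320 to 52676609), a beta subunit of the brain.

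Cacnb4 had 4, 10 and 12 counts in tumor-free replicates 1 to 3, and 58, 22, 86 and 26 counts in tumor-bearing replicates 1 to 4. Scaled to library size these were 38.9, 84.9 and 96.7 CPM without a tumor, and 795, 231, 483 and 177 CPM with one. The groups did not overlap, and the highest level came from tumor-bearing replicate 1, the library with the lowest total. The means were 422 ± 283 CPM (SD, n = 4) and 73.5 ± 30.5 CPM (SD, n = 3), 5.74-fold apart. The fitted log2 fold change, tumor-bearing over tumor-free, was 2.32 (SE 0.64). Of all genes tested, 2.2% had every tumor-bearing library above every tumor-free one. Because the comparison itself chose Cacnb4, nothing is read from its place among them, and it did not pass the threshold adjusted over all genes.

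Without tumor-bearing replicate 1 the means were 4.04-fold apart, and without tumor-bearing replicate 4 they were 6.85-fold apart. The fitted log2 fold change lay between 1.83 and 2.98 whichever library was left out. In the pair of 23-week-old mice, tumor-bearing replicate 4 had 177 CPM and tumor-free replicate 3 had 96.7 CPM, closer to each other than the 31-week-old mice were. Without the low count filter the adjusted p of Cacnb4 was 5.25e-05 (edgeR), 1 of 38 genes so called out of 13344. The log2 fold change in that fit was 2.34, near the 2.32 of the main fit, while the SE was 0.41 against 0.64. As the comparison chose Cacnb4, nothing is read from this call. In the other alternatives the adjusted p of Cacnb4 lay between 0.369 and 0.999.

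Cacnb2 showed another pattern over the same libraries. It had 21, 7 and 25 counts in tumor-free replicates 1 to 3, and 14, 7, 30 and 27 in tumor-bearing replicates 1 to 4. The levels were 155 ± 54.9 CPM (SD, n = 4) with a tumor and 155 ± 82.8 CPM (SD, n = 3) without. The groups overlapped through tumor-free replicate 2 alone, which had the lowest level of all; without it each tumor-bearing library lay below both tumor-free ones, and the log2 fold change was -0.35. The log2 fold change was 0.06 (SE 0.47; 95% interval -1.04 to 1.16; edgeR adjusted p = 0.998). The interval does not show that Cacnb2 stayed the same, since a change of 2-fold in either direction lies within it.

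**Figure D2:**
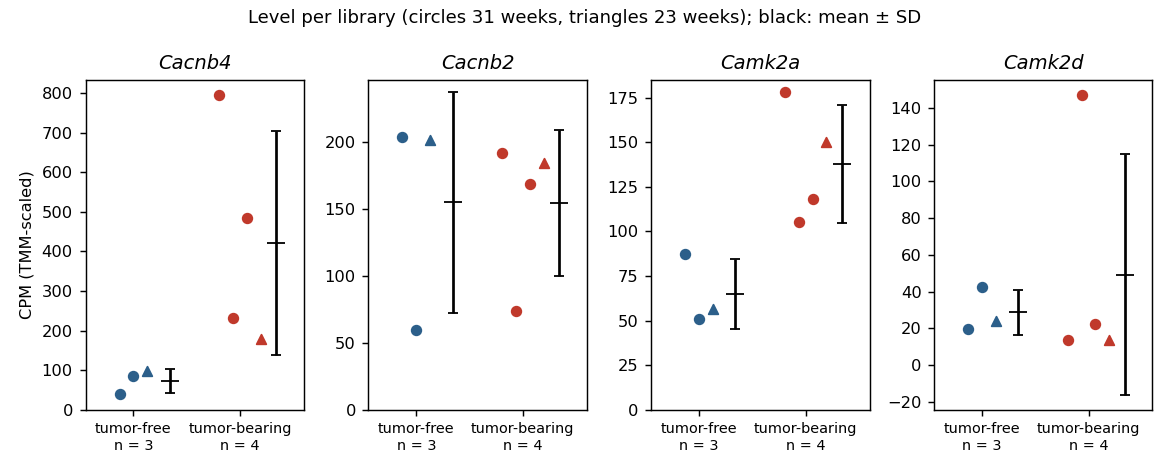
Level of Cacnb4, Cacnb2, Camk2a and Camk2d in CPM on TMM-scaled totals, 1 point per mouse (circles 31 weeks, triangles 23 weeks), with the mean ± SD in black. The tumor-bearing points of Cacnb4 and Camk2a lie above all tumor-free points, those of Cacnb2 lie below all tumor-free points but that of replicate 2, and Camk2d is high in tumor-bearing replicate 2 only.

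Between the 2 counted beta subunits the order of levels differed from library to library. Cacnb4 had more counts than Cacnb2 in 4 of 7 libraries, 3 tumor-bearing and 1 tumor-free. Its longest coding transcript is the longer one, with 8225 bases against 3945. Per kilobase of transcript, Cacnb4 had 51.3 ± 34.4 CPM per kilobase with a tumor (SD, n = 4) and 8.94 ± 3.71 without (SD, n = 3). Cacnb2 had 39.2 ± 13.9 and 39.3 ± 21.0 CPM per kilobase. On this scale Cacnb4 was the higher of the 2 genes in 3 of 4 tumor-bearing and 0 of 3 tumor-free libraries. Over all 7 libraries the means per kilobase were 33.1 ± 33.3 for Cacnb4 and 39.2 ± 15.6 for Cacnb2 (SD, n = 7). The spread of Cacnb4 includes the difference between the groups for which it was chosen, so these pooled means do not rank the 2 genes. Counts came from transcript ends, where length need not raise the count, so both scales are given.

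As a share of the counts of all 4 beta subunit genes, Cacnb4 made up 16% (4 of 25), 58.8% (10 of 17) and 32.4% (12 of 37) in tumor-free replicates 1 to 3. In tumor-bearing replicates 1 to 4 it made up 80.6% (58 of 72), 75.9% (22 of 29), 74.1% (86 of 116) and 49.1% (26 of 53). The exact 95% binomial intervals (Clopper-Pearson) cover counting error only and reached from 32.9% to 81.6% in tumor-free replicate 2. Mean shares were 69.9% ± 14.2 (SD, n = 4) with a tumor and 35.8% ± 21.6 (SD, n = 3) without. The shares overlapped between the groups, since tumor-bearing replicate 4 lay below tumor-free replicate 2. Because Cacnb4 was chosen for its difference between the groups, the shares were not tested.

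Among the kinases, Camk2a had the most counts in 6 of 7 libraries. Camk2a (chromosome 18, 60925307 to 60988152), the alpha chain of CaMKII, had 9, 6 and 7 counts in tumor-free replicates 1 to 3, and 13, 10, 21 and 22 in tumor-bearing replicates 1 to 4. In CPM these were 87.5, 50.9 and 56.4 without a tumor, and 178, 105, 118 and 150 with one. The groups did not overlap, but tumor-free replicate 1 and tumor-bearing replicate 2 were only 1 count apart before scaling. The means were 138 ± 32.9 CPM (SD, n = 4) and 65.0 ± 19.7 CPM (SD, n = 3), 2.12-fold apart. The log2 fold change was 1.07 (SE 0.36), and 0.86 to 1.37 whichever library was left out. Like Cacnb4, Camk2a was chosen by this comparison and did not pass the threshold adjusted over all genes.

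Camk2d (chromosome 3, 126595487 to 126846326), the delta chain and the main CaMKII of the heart, was the only other kinase counted in every library. It had 2, 5 and 3 counts in tumor-free and 1, 14, 4 and 2 in tumor-bearing replicates, so that 1 library held 14 of its 31 counts. Per kilobase of transcript Camk2a had 21.5 ± 9.42 CPM per kilobase and Camk2d 7.32 ± 8.70 (SD, n = 7). Camk2a was the higher in 6 libraries on this scale too, and Camk2d in tumor-bearing replicate 2. Camk2b (chromosome 11, 5969629 to 6066357), the beta chain, had 2 counts in all, and Camk2g (chromosome 14, 20734873 to 20794157), the gamma chain, had 4. At this depth no difference between the groups was detectable for these 3 genes.

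The share of Camk2a in the counts of the 4 kinase genes did not separate the groups. It was 81.8% (9 of 11), 50% (6 of 12) and 63.6% (7 of 11) in tumor-free replicates, and 81.3% (13 of 16), 41.7% (10 of 24), 80.8% (21 of 26) and 88% (22 of 25) in tumor-bearing replicates. Means were 72.9% ± 21.1 (SD, n = 4) and 65.2% ± 16.0 (SD, n = 3). The lowest share of all came from the tumor-bearing library in which Camk2d was high.

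**Figure D3:**
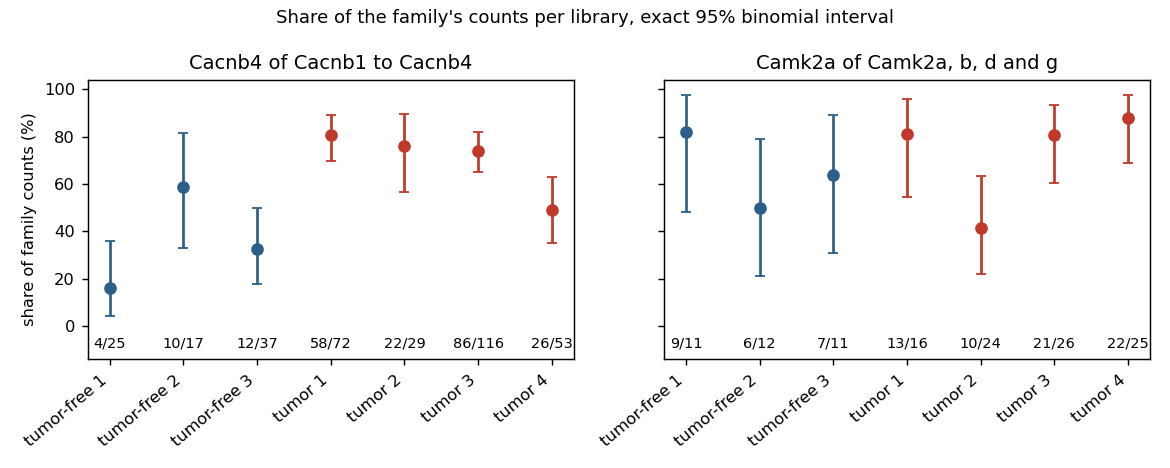
Share (%) of Cacnb4 in the counts of the 4 beta subunit genes and of Camk2a in the counts of the 4 kinase genes, per library, with exact 95% binomial intervals and the counts below each point. The shares of Cacnb4 run from 16% to 80.6% and overlap between the groups through tumor-free replicate 2 and tumor-bearing replicate 4; those of Camk2a overlap widely.

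The members also differ in the ends of their transcripts. Cacnb4 has the longest 3′ untranslated region of the beta subunit genes, with 6164 bases against 1393 in Cacnb1, 1832 in Cacnb2 and 958 in Cacnb3. The median over 19977 coding genes is 950 bases. Runs rich in A (at least 11 A in 12 bases, more than 100 bases before the end), to which an oligo-dT primer can bind, numbered 2 in the transcripts of Cacnb4 and of Camk2a. Camk2d, Camk2g and Cacna2d1 had 1 each, and Cacna1c, Cacnb1, Cacnb2, Cacnb3 and Camk2b had 0; of all coding genes 18.1% had at least 1. The part of these features in the counts was not tested. No member's longest coding transcript held a sequence of 25 bases shared with 50 or more genes. Sequences made up almost wholly of 1 or 2 kinds of base, long runs of A among them, were left out of this search. Exons of Cacnb4 overlap those of A430018G15Rik on the opposite strand, a gene not among the IDs of the count files; no label states whether the counts used strand.

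The other genes of calcium signalling did not pass the test either. Of 89 listed genes, the members included, 63 had a count, 14 were tested and 0 passed in either direction (edgeR). Their median log2 fold change was 0.13, with 9 above 0 and 5 below; without Cacnb4 and Camk2a it was 0.08 over 12 genes, 7 above and 5 below. Over all genes tested it was 0.03, with 1339 above and 1156 below.

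By place in the pathway, few genes of the channel itself had enough counts to be tested. Of 26 genes for its pores and its alpha2delta, beta and gamma subunits, 14 had a count and 4 were tested, Cacnb2 and Cacnb4 among them. Cacna1f had 89.2 ± 45.9 CPM in tumor-bearing and 61.8 ± 51.6 CPM in tumor-free mice (log2 fold change 0.69, SE 0.45). Cacna2d2, a second alpha2delta gene, had 91.8 ± 58.5 against 67.8 ± 37.6 CPM (0.50, SE 0.67). Of 8 gamma subunit genes 7 had 0 counts, and only Cacng2 was counted, with 1 to 7 per library. Ahnak, which encodes a large scaffold protein that binds beta subunits, had 256 ± 125 against 315 ± 139 CPM (-0.35, SE 0.44), and the sign turned to 0.01 without tumor-free replicate 1. Rrad and Rem2, 2 small GTPases that inhibit the channel through its beta subunit, had 0 counts; of the related Rem1 and Gem, Rem1 had 13 counts in all and Gem 1.

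Downstream of calcium, a kinase other than CaMKII held the most counts. Camk4, a calmodulin kinase of lymphocytes and neurons that activates CREB, had 111 to 195 counts per library and ranked 31 among all genes by mean level. By the same measure the osteoblast markers Col1a1 and Bglap ranked 752 and 6259, so a high rank here need not mark an osteoblast gene. The level of Camk4 was 1442 ± 424 CPM in tumor-bearing and 1268 ± 172 CPM in tumor-free mice (log2 fold change 0.16, SE 0.26). Camkk2, the kinase that activates Camk4, had 294 ± 85.7 against 230 ± 26.8 CPM (0.36, SE 0.32). Per kilobase, Camk4 had 503 CPM per kilobase over the 7 libraries, Camkk2 54.8 and Camk2a 21.5, a scale that counts from transcript ends need not follow.

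Calm3, 1 of 3 genes for the same calmodulin protein, had 130 ± 11.1 CPM in tumor-bearing and 192 ± 50.9 CPM in tumor-free mice (log2 fold change -0.56, SE 0.26; edgeR adjusted p = 0.998), on the other side from Camk2a. Rcan2, an inhibitor of the calcium-dependent phosphatase calcineurin, had 378 ± 48.4 against 394 ± 46.1 CPM (-0.06, SE 0.23). Stim2, a sensor of calcium in the endoplasmic reticulum, had 326 ± 52.7 against 389 ± 112 CPM (-0.24, SE 0.27), and Mcu, the calcium uniporter of mitochondria, 177 ± 79.1 against 201 ± 13.8 CPM (-0.15, SE 0.38). Slc8a1, a sodium-calcium exchanger (0.27, SE 0.35), and Atp2b1, a calcium pump of the plasma membrane (0.10, SE 0.48), completed the genes tested. Stim1 and the calcineurin gene Ppp3cb had 0 counts in all libraries.

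**Figure D4:**
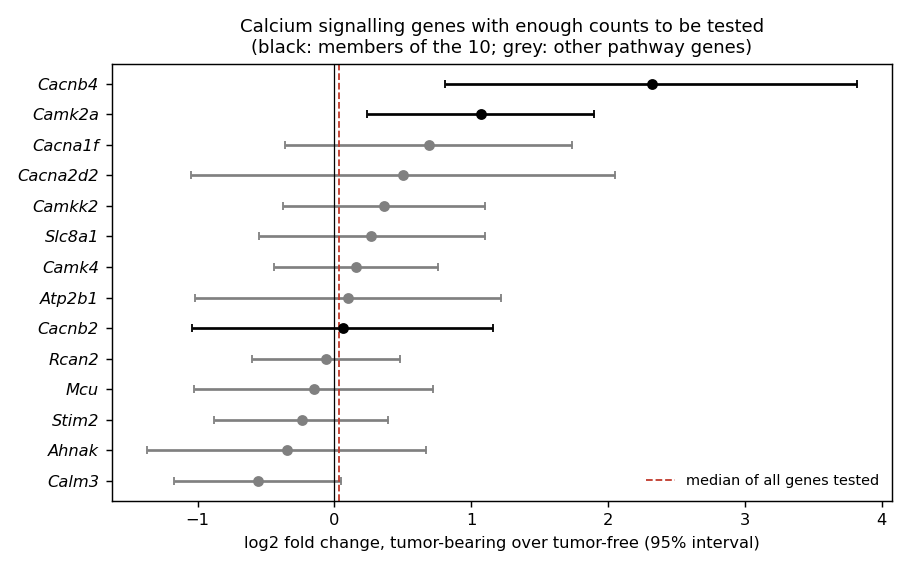
Log2 fold change, tumor-bearing over tumor-free, with its unadjusted 95% interval for the 14 calcium signalling genes tested (black for members of the 10, grey for others); the dashed line is the median of all genes tested, 0.03. Only the intervals of Cacnb4 and Camk2a, which this comparison chose, leave out 0, and no gene passed the adjusted threshold.

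The genes whose pattern over the 7 libraries was most like that of Cacnb4 were Ddx55 (Pearson r = 0.937 of log2 CPM), Manea (0.902) and Gga2 (0.889). For Camk2a they were Ccn3 (0.949), Cyp4a31 (0.939) and Morrbid (0.928). These are the highest among 2494 genes searched for each. These values describe 7 points that share the libraries' scaling, and they are the highest among 2494 genes searched for each. Ddx55, an RNA helicase gene, had 33 to 65 counts with and 26 to 37 without a tumor. Ccn3, which encodes a secreted matrix-associated protein, had 18 to 34 and 11 to 21, counts not scaled to library totals. Both genes were picked for likeness to genes that the comparison chose. Nothing is therefore read from their difference between the groups.

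Of the 14 marker lists, only those of skeletal muscle, osteoclasts and osteocytes had sums that did not overlap between the groups. With 4 and 3 libraries some lists can separate by chance, and the sums were not tested. The 10 skeletal muscle markers summed to 22.5 to 82.3 CPM in tumor-bearing and 0 to 16.1 CPM in tumor-free libraries; the muscle-defining Acta1, Mylpf, Des and Myog were at 0, and 6 of the 10 had a count. These sums rest on 4 to 6 counts per tumor-bearing and 0 to 2 per tumor-free library, and Cacna1s, the pore of the skeletal muscle channel, was on the other side, with 0 counts in tumor-bearing and 2 in tumor-free libraries. The 5 osteoclast markers summed to 56.2 to 68.6 against 17.0 to 48.4 CPM, with 4 of 5 counted and Calcr at 0, on 5 to 10 against 2 to 6 counts per library. Atp6v0d2 held most of these, with 32 counts in all against 5 of Ctsk, 2 of Oscar and 1 of Acp5. Its own levels overlapped between the groups, 27.4 to 56.2 CPM with and 8.49 to 48.4 CPM without a tumor. The 6 osteocyte markers, each with a count, summed to 294 to 368 CPM with and 370 to 501 CPM without a tumor. These ranges nearly touch, and the counts behind them overlapped, 25 to 56 against 38 to 59 per library. Pdpn (170 counts in all) and Phex (127) held most of their counts; these 2 were tested and 0 passed. The part of these cells in the levels of Cacnb4 and Camk2a was not tested. In bulk libraries, fewer cells of a type and less RNA per cell cannot be told apart.

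For neurons, where Cacnb4 and Camk2a are best known, the marker sums overlapped. The 13 neuron markers, 11 of them counted, summed to 355 to 549 CPM with and 433 to 866 CPM without a tumor, and Tubb3 and Syn1 were at 0. Elavl3 had the most counts of these, 203 in all, and 1 tumor-free library held 25 of the 29 counts of Syt1. The 7 T cell markers, 6 of them counted, summed to 354 to 484 against 322 to 543 CPM, with Lck at 0. Cd3d (168 counts in all) and Cd3g (143) held most of their counts. The sums of the osteoblast, Schwann and glia, neutrophil, monocyte, B cell, erythroid, endothelial, chondrocyte and marrow stroma lists overlapped between the groups as well. In the neutrophil list Cxcr2 had 1304 counts in all, against 2 of S100a9 and 1 of Mpo. Sums that rest on so few genes need not track a cell type.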

How the data were processed

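Counts per Entrez gene ID, whole numbers with a different total in each of 7 files, were used as deposited by the authors. Per the labels' protocols they come from a 3′ end method with molecular identifiers; TopHat2 2.0.10, SAMtools and mm10 are named in the submitters' processing notes. Neither the labels nor the files name the counting program, strand setting or read length, or say whether molecular identifiers were merged. Symbols and positions came from RefSeq GRCm38.p6 (the assembly of mm10; 23666 of 23725 IDs matched).

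Genes were filtered with filterByExpr (minimum count 10, minimum total 15), leaving 2495, and tested with edgeR 4.0.16 (glmQLFit, robust; R 4.3.3) on group and age, with Benjamini-Hochberg adjustment at 0.05. TMM factors from the genes kept were applied to full totals, also for CPM. SE is the log2 fold change (prior count 0.125) over the root of F. Alternatives included DESeq2 1.42.0 and limma 3.58.1. The procedure was tested on simulated counts. Members and lists (11 of calcium signalling, 14 of cell markers) were chosen with earlier results of these data known. Named were the members, up to 4 tested genes per calcium list by mean level, and the 3 genes most like Cacnb4 and Camk2a by Pearson r of log2 CPM (prior count 2); genes named for having 0 or few counts, and the marker genes, were chosen after their values were seen. Each library is 1 mouse. Some alleles and marker genes are not reported here.

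Deviations of same-numbered replicates from their group means had correlations of -0.155, -0.204 and -0.137 over 2495 genes. Between differently numbered replicates the correlations ran from 0.000223 to 0.154. Each deviation was taken from its group's mean over replicates 1 to 3, which ties these values to one another. Neither presence nor absence of shared deviation is read from them. The main test has no replicate block. The design text of the series states matching for age, sex and litter, but only age varies in the labels. Replicate 3 was 31 weeks old in the tumor-bearing and 23 in the tumor-free group. Replicate numbers thus need not be the matched pairs, and the correlations do not show whether matched mice resemble each other.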

Additional observations from a re-analysis of the deposited data

Results flagged for a closer look

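In the tumor-bearing group 4 of the genes named had 1 library far from the other 3, by the ratio of its gap to the group's range (above Dixon's 95% limit). Chance flags about 1 in 20 groups, and 25 genes were examined. Camk2d had 147 CPM in replicate 2 (ratio 0.934). Camk2g had 27.4 CPM in replicate 1 and 0 counts in the others (ratio 1.0), which rests on 2 counts. Calm3 had 146 CPM in replicate 3 (ratio 0.856), and Ddx55 had 549 CPM in replicate 1 (ratio 0.856). Cacnb4 was highest in that library too. Ddx55 was named for its likeness to Cacnb4 over these libraries, so nothing is read from the shared library.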

How the results depend on the processing

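With 1 exception, the 16 alternatives called 0 genes between the groups, as the main test did. Without the low count filter 38 genes were called, 12 of them also tested in the main fit. Of the 38, 1 was a calcium signalling gene, Cacnb4, which this comparison had chosen and whose SE was smaller in that fit. Cacnb4 (1.83 to 2.98) and Camk2a (0.86 to 1.37) had a log2 fold change above 0 in the 15 alternatives that gave one; the stricter low count filter removed both, and Cacnb2. With the replicate block, on replicates 1 to 3 and without age, they were 2.56 and 0.99, and 0 genes were called. This block follows the replicate numbers, which need not be the matched pairs. Of 20 named genes with a fold change, 15 kept their sign. Cacnb2 turned with the replicate block (-0.11) and without tumor-free replicate 2 (-0.35), tumor-bearing replicate 1 (-0.10) or tumor-bearing replicate 3 (-0.11). Ahnak (0.01) and Rcan2 (0.04) turned without tumor-free replicate 1, and Camk4 (-0.06) without tumor-bearing replicate 1. Atp2b1 turned in 31-week-old mice alone (-0.45), with limma voom (-0.0049), and without tumor-free replicate 3 (-0.43), tumor-bearing replicate 3 (-0.00056) or tumor-bearing replicate 4 (-0.47). Over the fits with 1 library left out, the log2 fold change ran from -0.35 to 0.57 for Cacnb2, -0.72 to 0.01 for Ahnak, -0.06 to 0.28 for Camk4, -0.18 to 0.04 for Rcan2 and -0.47 to 0.33 for Atp2b1. The cause of these turns was not tested. Leaving out 1 mouse of 23 weeks leaves the other fitted by the age term alone. Depth limits the 7 members below the filter to counts.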
